A study of Mus musculus with 12 samples.

Results

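On arrays of triceps brachii (a muscle of the upper forelimb) from male mice of the C57BL/6J strain, labelled as 12 weeks old, 44 probes read lower in every RNA pool taken after 15 days of a subcutaneous pump infusion than in every pool taken after 5 days. Mice received either saline or 5 mg/kg/day of 20-hydroxyecdysone (20E), the moulting hormone of insects, which plants also make. There were 4 groups of 3 pools (saline and 20E, 5 and 15 days), so each duration had 6 pools and 12 arrays were run. A pool held equal RNA (1 µg each) from 3 animals, except 1 saline pool with 2, and errors below describe pools, never single mice. That pool belongs to a saline group lettered B; if this is the B of the array column codes, it is a 15-day pool, which the labels do not single out. All groups carried a pump, and no group without one was analysed here. The sources used here give neither the hour of day nor the feeding state at collection, nor whether the labelled age is that at implantation or at collection.

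The members were chosen from the deposited log2 values. A probe was taken if its detection p-value was under 0.05 on all 12 arrays, if its highest value among the 6 pools of 15 days lay below its lowest among the 6 pools of 5 days, and if the 5-day mean minus the 15-day mean (here called the fall) was at least 0.3. Of 45281 probes, 14778 were detected on all 12 arrays, and 14478 remained once the 300 with the highest mean were left out. The rule took 44 of these (0.304%), and none of the 300 left out would have met it. The choice used the values themselves, so the members' difference between 5 and 15 days is described below and not tested. Limma's test of it is given only for probes outside the set and as a count or share over all probes. The same rule turned round took 95 probes (0.656%) of 78 genes that were higher at 15 days. This balance depended on the scaling: the deposited values, which share their quantiles across arrays, gave 44 lower and 95 higher, whereas signals scaled by their median alone gave 209 lower and 16 higher. All 44 probes were among the 209, and their mean was lower at 15 days under every scaling tried (medians 0.41 as deposited, 0.49 with median scaling and 0.31 without background correction). Median scaling moved the median of all detected probes from -0.01 to 0.10, so values under that size are read against it.

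The set covered 36 named genes on 16 chromosomes, 35 of them protein-coding, and 2 probes without a gene name. Ciart had 3 probes in it, and Gadd45b, Prdm2, Npc1 and Hbp1 had 2 each. The median fall was 0.41, or 1.33-fold, and falls ran from 0.30 (1.23-fold) to 1.43 (2.70-fold). The fall exceeded 1 in 4 probes, lay between 0.5 and 1 in 9 and was under 0.5 in 31. Over all 14478 candidate probes the median was -0.01. The median spread within groups (pooled SD) was 0.156 for the members and 0.168 for the candidates. The gap between the durations, that is the lowest 5-day value minus the highest 15-day value, was under 0.05 for 19 of the 44 probes and over 0.2 for 4, with a median of 0.055. The gap was smallest for 2410002F23Rik (0.0011), Arhgef3 (0.005) and Per1 (0.007), and it was largest for Ciart (0.50 and 0.37) and Chac1 (0.231).

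A total of 6 arrays carried extra signal from sets of probes. Of 19704 probes tested, 79 exceeded their own median over the 12 arrays by at least 3 log2 units in saline pool 2 of 5 days. The median excess of these 79 was 3.73 there, 2.82 in 20E pool 3 and 0.93 in 20E pool 1 of 5 days. A second set of 84 probes, raised that far in 20E pool 3 of 15 days (median 3.90), had a median of 3.73 in saline pool 1 and 1.58 in saline pool 2 of 15 days. None of the 44 probes was in either set. With these 6 arrays (the raised arrays) left out, the median fall of the 44 was 0.39, the lowest was 0.10 (Arhgef3) and 8 were under 0.3. Pdcd4, Arhgef3, Cd74, Tmem86a, Relb and Chst1 exceeded the median of the other 5-day pools by more than 0.5 in saline pool 2. The fall moved by over 1.5 times without the raised arrays for 8 members: it became 0.70 for Cd74, 0.54 for Chst1, 0.36 for Relb, 0.31 for Pdcd4, 0.25 for 2410006H16Rik, 0.22 for Hnrnpf and Sesn1, and 0.10 for Arhgef3. By running number in the array headers, the median fall was 0.39 within arrays 1 to 6 and 0.43 within arrays 7 to 12.

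Several members belong to programmes with well-studied rhythms or stress inputs. In the circadian clock, the CLOCK and ARNTL proteins bind E-box elements and drive the Per, Cry and Ciart genes, whose products repress the same pair, so the transcripts of a tissue swing with the time of day. Muscle responds to fasting, glucocorticoids and disuse through FOXO factors, which raise ubiquitin ligases such as Trim63, while shortage of amino acids acts through ATF4 on genes such as Chac1. NF-kB subunits, among them Relb, and the class II chaperone Cd74 belong to immune signalling and antigen presentation.

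The promoters of 5 members are printed, from 250 bases before to 50 bases after the start site. They were picked as known targets of DNA-bound factors and not by size of fall. Members with larger falls than some of these, such as Cd74 and Chst1, are not printed. The sequences are from RefSeq (GRCm38.p6), which gave promoters for 28 of the 36 genes. They lie at chr3:95882179-95882478 (minus strand) for Ciart, chr11:69098699-69098998 (plus strand) for Per1, chr10:80929841-80930140 (plus strand) for Gadd45b, chr2:119350992-119351291 (plus strand) for Chac1 and chr4:134314870-134315169 (plus strand) for Trim63. Capitals mark matches, on either strand, to an E-box (CACGTG), a D-box (TTATGNAA), an ATF4 element (TGATGNAA) or a FOXO element (TGTTTAC).
Ciart: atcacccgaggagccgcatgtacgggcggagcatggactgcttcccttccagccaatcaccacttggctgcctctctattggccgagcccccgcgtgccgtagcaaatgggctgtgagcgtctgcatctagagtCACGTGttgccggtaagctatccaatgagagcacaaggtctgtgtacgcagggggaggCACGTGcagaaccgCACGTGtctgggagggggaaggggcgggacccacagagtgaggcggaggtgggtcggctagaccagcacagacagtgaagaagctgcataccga
Per1: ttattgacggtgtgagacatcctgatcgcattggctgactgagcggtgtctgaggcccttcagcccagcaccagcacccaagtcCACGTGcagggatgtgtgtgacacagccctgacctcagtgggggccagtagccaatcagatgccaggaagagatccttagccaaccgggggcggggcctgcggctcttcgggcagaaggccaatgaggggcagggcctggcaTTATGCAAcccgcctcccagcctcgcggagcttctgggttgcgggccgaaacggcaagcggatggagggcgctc
Gadd45b: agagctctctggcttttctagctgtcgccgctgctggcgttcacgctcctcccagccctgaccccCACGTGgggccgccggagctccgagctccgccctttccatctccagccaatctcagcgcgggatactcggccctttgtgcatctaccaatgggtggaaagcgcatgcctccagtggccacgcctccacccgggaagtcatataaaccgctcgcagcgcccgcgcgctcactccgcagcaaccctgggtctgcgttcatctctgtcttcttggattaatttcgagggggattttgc
Chac1: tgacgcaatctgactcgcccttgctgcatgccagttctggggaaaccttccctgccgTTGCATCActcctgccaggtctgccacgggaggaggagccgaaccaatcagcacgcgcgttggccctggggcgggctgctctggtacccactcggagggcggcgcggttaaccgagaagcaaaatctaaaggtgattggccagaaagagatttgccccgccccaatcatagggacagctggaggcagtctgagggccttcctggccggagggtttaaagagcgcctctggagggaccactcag
Trim63: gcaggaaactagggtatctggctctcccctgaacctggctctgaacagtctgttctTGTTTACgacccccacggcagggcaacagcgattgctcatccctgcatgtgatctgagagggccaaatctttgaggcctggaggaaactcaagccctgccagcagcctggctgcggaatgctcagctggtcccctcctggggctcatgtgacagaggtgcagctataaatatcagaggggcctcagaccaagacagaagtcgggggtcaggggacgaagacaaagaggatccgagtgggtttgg
The Ciart window held 3 E-boxes, whose ends lie 111, 53 and 39 bases before the start site. In the printed Per1 window there was an E-box and a D-box, in that of Gadd45b an E-box, in that of Chac1 an ATF4 element and in that of Trim63 a FOXO element. Per1 has another RefSeq promoter, at chr11:69099902-69100201 (plus strand), which held no match to any of these 4 motifs. E-boxes occurred in 6 of the 38 promoters of member genes (15.8%; Ciart, Fnip1, Gadd45b, Hnrnpf, Per1 and Pip4p1) and in 7.15% of all 32851 promoters of this length. FOXO elements occurred in 4 of 38 (10.5%; Hbp1, Pip4p1, Sesn1 and Trim63) against 3.65% of all, D-boxes in 5.26% against 3.39%, and ATF4 elements in 2.63% against 3.97%. The cAMP response element TGACGTCA was in none of the 38 and in 1.79% of all. A match is a description of these letters and not evidence of a bound site.

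Ciart (also called Chrono), a clock gene that represses CLOCK and ARNTL, held 3 of the 4 largest falls and was 2.39- to 2.70-fold lower at 15 days on its 3 probes. For ILMN_3102736 the log2 values of pools 1, 2 and 3 were 8.19, 8.10 and 7.95 in saline and 7.40, 8.28 and 7.98 in 20E at 5 days, and 6.32, 6.59 and 6.90 in saline and 6.29, 6.73 and 6.46 in 20E at 15 days. For ILMN_3029489 they were 8.0, 7.90 and 7.95 in saline and 7.36, 8.25 and 7.97 in 20E at 5 days, and 6.71, 6.85 and 6.98 in saline and 6.36, 6.28 and 6.28 in 20E at 15 days. For ILMN_1236079 they were 6.51, 6.69 and 6.59 in saline and 5.95, 6.74 and 6.43 in 20E at 5 days, and 5.17, 5.84 and 4.95 in saline and 5.46, 5.08 and 4.87 in 20E at 15 days. On all 3 probes the lowest 5-day pool was the first 20E pool, and the other 5 pools of that duration lay closer together. The falls were 1.43, 1.33 and 1.26.

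Per1, another repressor of that loop and also a direct glucocorticoid target, was 1.31-fold lower at 15 days. Its member probe read 10.16, 10.15 and 9.84 in saline and 10.21, 10.14 and 9.86 in 20E at 5 days, and 9.59, 9.82 and 9.84 in saline and 9.65, 9.57 and 9.59 in 20E at 15 days. Pool 3 of each 5-day group stood well below the others of its group, and that of saline came within 0.007 of the highest 15-day pool. A second Per1 probe detected on all 12 arrays (ILMN_2813487) had a fall of 0.36, and its durations overlapped by 0.025.

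Other genes of the clock were set beside these. The list held 25 tested probes of 15 genes, 21 of them outside the set. Of these 21, limma called 0 lower and 0 higher at 15 days (adjusted p under 0.05). Over all 19704 probes tested, members included, it called 0.0152% lower and 0.0254% higher (8 probes or 0.0406% in either direction). All of the probes called lower were members, so that share is not free of the choice. Before adjustment, 8 of the 21 were lower and 2 higher at p under 0.05, and 12.6% of all probes passed that in either direction. Of the 19704 probes, members included, 1080 were lower and 1398 higher at that level. On the deposited scale, 16 of the 20 clock probes detected on all arrays had a lower mean at 15 days and the median fall was 0.27. Those 20 included the 4 members of the list, which were chosen for being lower. Outside the set 12 of 16 had a lower mean, with a median of 0.18, against 47.85% and -0.01 over all detected probes. Apart from the set, the fall was 0.50 for Nr1d1, a repressor of Arntl, 0.39 for Dbp, an output factor that binds D-boxes, 0.38 for Per3 and 0.26 for Bhlhe40. Rora, an activator of Arntl, separated fully, with a gap of 0.086, but its fall of 0.297 missed the size threshold. The activator Arntl stood on the other side: it was higher at 15 days by 0.80. It met the rule turned round, with its durations only 0.008 apart. Clock differed between probes (0.07 and -0.39), and Per2 gave -0.02 and -0.06.

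Among genes of stress and growth arrest, Gadd45b and Chac1 had the largest falls. Gadd45b, which is induced by stress and acts on the p38 and JNK kinase routes, was 2.00- and 1.85-fold lower on its 2 probes. ILMN_1246065 read 6.70, 6.12 and 6.85 in saline and 6.55, 5.96 and 6.38 in 20E at 5 days, and 5.87, 5.31 and 5.76 in saline and 5.07, 5.69 and 4.88 in 20E at 15 days. ILMN_2900653 read 8.61, 8.53 and 8.69 in saline and 8.19, 8.32 and 8.73 in 20E at 5 days, and 7.67, 7.44 and 7.82 in saline and 7.14, 8.01 and 7.66 in 20E at 15 days. The probes agreed on the size of the fall (1.00 and 0.89) but differed in which pool came nearest the other duration. Chac1, which degrades glutathione and is an ATF4 target, was 1.91-fold lower. Its probe read 12.89, 13.35 and 12.89 in saline and 12.69, 13.03 and 12.84 in 20E at 5 days, and 12.46, 11.59 and 11.99 in saline and 11.52, 12.36 and 12.17 in 20E at 15 days. At each duration its pools spanned less than 1 log2 unit, and at 15 days saline pool 2 and 20E pool 1 were the lowest. In the amino acid and unfolded protein stress list as a whole, 8 of the 16 probes detected on all arrays had a lower mean at 15 days. The median was -0.01 (13 of 16 and 0.08 with median scaling). Outside the set 7 of 15 had a lower mean, with a median of -0.03, against 47.85% and -0.01 over all detected probes. Trib3, another ATF4 target, had a fall of 0.44, while both Ddit3 probes were higher at 15 days (-0.29 and -0.36). Of the list's 21 tested probes outside the set limma called 0 in either direction after adjustment, and 1 was lower and 3 higher at an unadjusted p under 0.05. Over all 19704 probes tested, members included, 1080 were lower and 1398 higher at that level.

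Smaller falls were seen for other growth regulators. Pdcd4, an inhibitor of translation initiation, ran from 9.45 to 10.48 at 5 days and from 9.06 to 9.37 at 15 days, a fall of 0.58. Its highest value came from saline pool 2 of 5 days, 0.79 above the median of the other 5-day pools. Without the raised arrays its fall was 0.31. Sesn1, a leucine-sensing inhibitor of mTORC1 and a FOXO and p53 target, ran from 10.28 to 10.73 at 5 days and from 9.92 to 10.19 at 15 days, a fall of 0.34. Hbp1, a repressor of cell cycle genes, had falls of 0.33 and 0.32 on its 2 probes, which ran from 10.91 to 11.16 at 5 days and from 10.58 to 10.81 at 15 days and from 11.81 to 12.03 at 5 days and from 11.53 to 11.78 at 15 days. A further Hbp1 probe (ILMN_3092415) also separated the durations, by 0.034, with a fall of 0.29. Ccng2, a cell cycle inhibitor, was just outside the size threshold at 0.293.

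Trim63 (MuRF1), the ubiquitin ligase of the sarcomere, was 1.33-fold lower at 15 days. It read 11.49, 11.66 and 11.57 in saline and 11.65, 11.50 and 11.38 in 20E at 5 days, and 11.06, 11.26 and 11.18 in saline and 11.05, 11.22 and 11.02 in 20E at 15 days. Its falls were 0.41 in both infusions and its group SDs were small beside them (pooled SD 0.110). The other ligase of muscle atrophy, Fbxo32, had larger falls on its 3 probes (0.70, 0.72 and 0.79) but was not in the set, because its durations overlapped by 0.13 to 0.22. In the atrophy and ubiquitin ligase list, 20 of 21 probes detected on all arrays had a lower mean at 15 days, with a median of 0.13. Outside the set this list gave 19 of 20 and a median of 0.12, against 47.85% and -0.01 over all detected probes. Limma called 0 of its 21 tested probes outside the set in either direction after adjustment, and 7 were lower and 0 higher at an unadjusted p under 0.05. Over all 19704 probes tested, members included, 1080 were lower and 1398 higher at that level. In the glucocorticoid response list, which holds Per1 and Sesn1, 20 of 24 probes had a lower mean, with a median of 0.22. Its 3 Cdkn1a probes, for the cell cycle inhibitor p21, had falls of 0.47, 0.53 and 0.69. The probes of Tsc22d3, a standard glucocorticoid target, gave 0.03, -0.09 and -0.37. Limma called 0 of the glucocorticoid list's 25 tested probes outside the set after adjustment. At an unadjusted p under 0.05, 7 were lower and 1 higher, beside the same counts over all probes. Outside the set 18 of 22 probes of this list had a lower mean, against the same 47.85% of all detected probes. Their median fall was 0.22, and it was 0.13 without the raised arrays.

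Mylk2, the kinase of the fast-muscle myosin light chain, had the smallest pooled SD of the set (0.065). It read 10.75, 10.62 and 10.65 in saline and 10.70, 10.64 and 10.53 in 20E at 5 days, and 10.35, 10.42 and 10.44 in saline and 10.19, 10.18 and 10.28 in 20E at 15 days. Its 6 values per duration were tightly grouped, and 20E was the lower infusion at 15 days. Other Mylk2 probes had falls of 0.27 and 0.28, and ILMN_2506245 also separated the durations. Among markers of the skeletal fibre, all 15 genes were detected on all arrays, 15 of 28 probes had a lower mean at 15 days, and the median was 0.003 (22 of 28 and 0.09 with median scaling). Over all detected probes 47.85% had a lower mean on the deposited scale.

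Odc1, the rate-limiting enzyme of polyamine synthesis, was 1.35-fold lower. It read 12.50, 12.46 and 12.93 in saline and 12.71, 12.77 and 12.79 in 20E at 5 days, and 12.41, 12.26 and 12.37 in saline and 12.11, 12.17 and 12.26 in 20E at 15 days. Saline pools 1 and 2 of 5 days lay close above the 15-day pools, whereas the 20E pools of 5 days were all higher than those. Smox and Azin1, polyamine genes looked up after the values were seen, had no lower mean at 15 days over all arrays. The fall was -0.26, -0.24, -0.22, -0.17 and -0.15 on the Smox probes and -0.03 for Azin1. Without the raised arrays the Smox probes gave -0.08 to 0.14 and Azin1 gave 0.12.

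Other members act in cholesterol export and at the lysosome. Npc1, which carries cholesterol out of the lysosome, had 2 probes in the set. ILMN_2427454 read 11.96, 12.02 and 12.15 in saline and 11.97, 11.99 and 12.12 in 20E at 5 days, and 11.70, 11.67 and 11.52 in saline and 11.53, 11.75 and 11.50 in 20E at 15 days. This probe had the fourth widest gap of the set (0.212), with a fall of 0.43. ILMN_1247075 ran from 8.73 to 9.16 at 5 days and from 8.47 to 8.71 at 15 days, a fall of 0.38. One more Npc1 probe detected on all arrays (ILMN_1250418) had a fall of -0.09 (0.03 with median scaling). Stard3, a sterol transfer protein of late endosomes, ran from 8.72 to 9.04 at 5 days and from 8.38 to 8.56 at 15 days (fall 0.38). Atp6v1h, a subunit of the lysosomal proton pump, ran from 9.82 to 10.11 at 5 days and from 9.59 to 9.75 at 15 days (fall 0.30). For Pip4p1, a lysosomal membrane protein, the values went from 7.85 to 8.23 at 5 days and from 7.55 to 7.80 at 15 days (fall 0.38), but another Pip4p1 probe gave -0.10 (0.01 with median scaling). Fnip1, the folliculin partner that acts on AMPK and mTORC1 at the lysosome, ran from 10.93 to 11.13 at 5 days and from 10.38 to 10.88 at 15 days (fall 0.41), and its other probes gave 0.40 and 0.49. Tmem86a, a lysoplasmalogenase, ran from 8.47 to 9.18 at 5 days and from 8.18 to 8.40 at 15 days (fall 0.51).

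Cd74, the invariant chain of class II antigen presentation, had the second largest fall (1.35, 2.55-fold) and the largest pooled SD (0.698). It read 5.85, 7.89 and 5.80 in saline and 6.32, 6.40 and 7.25 in 20E at 5 days, and 4.76, 5.23 and 5.67 in saline and 5.04, 5.23 and 5.48 in 20E at 15 days. Saline pool 2 and 20E pool 3 of 5 days stood far above the rest. In bulk muscle, fewer cells of a type and less RNA per cell cannot be told apart. Both other Cd74 probes had falls of 1.18 and 1.19, but their durations overlapped by 0.58 and 0.50. The class II genes, looked up after the values were seen, had falls of 1.38 for H2-Aa, 1.21, 1.23 and 1.27 for H2-Ab1, 1.19 for H2-Eb1, 0.83 and 0.88 for H2-DMa and 1.14 for H2-DMb1, and all of these probes overlapped between durations. Without the raised arrays, the fall was 0.70 on the Cd74 member, 0.12 and 0.20 on the other Cd74 probes, 0.46 for H2-Aa, 0.25, 0.32 and 0.31 for H2-Ab1, 0.15 for H2-Eb1 and 0.05 for H2-DMb1, and the H2-DMa probes gave -0.01 and -0.04. Of 12 B and plasma cell markers 6 had a probe, 2 (Cd74 and Mzb1) were detected on all arrays and none of the 6 was undetected throughout. Cd79b was detected on 3 and 4 arrays by its 2 probes and Pou2af1 on 3. The summed linear signal of the list's probes was 1468 to 14404 in saline and 1866 to 6755 in 20E at 5 days, and 1255 to 2080 in saline and 1142 to 1250 in 20E at 15 days. The macrophage list (12 of 14 genes with a probe were detected on all arrays, 0 on none) summed to 5750 to 14087 in saline and 5993 to 10701 in 20E at 5 days, and to 4893 to 7736 and 4557 to 5274 at 15 days. The T and NK cell list (1 of 9 genes with a probe detected on all arrays, 3 on none) summed to 361 to 3281 and 434 to 1643 at 5 days, and to 430 to 444 and 426 to 454 at 15 days. Adipocyte markers (6 of 13 detected on all arrays, 1 on none) summed to 6381 to 8110 and 7077 to 15581 at 5 days, and to 5208 to 6955 and 5950 to 7277 at 15 days. The high 5-day sums of the B and plasma, macrophage, and T and NK cell lists came from saline pool 2 and 20E pool 3, both raised arrays. In the remaining 5-day pools these lists gave 1468 to 2608, 5750 to 6404 and 361 to 467. Saline pools 2 and 3 of 15 days had macrophage sums of 7736 and 7579. The adipocyte sum of 15581 was that of 20E pool 1, also a raised array, and the remaining 5-day pools gave 6381 to 8110. The part of these cells in the result was not tested. Relb, a subunit of the non-canonical NF-kB pathway, ran from 6.29 to 7.04 at 5 days and from 5.58 to 6.25 at 15 days (fall 0.58), again with its highest value in saline pool 2 of 5 days.

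Of genes for chromatin and transcription, Prdm2, a histone methyltransferase, had 2 probes in the set. ILMN_2707291 read 8.68, 8.51 and 8.57 in saline and 8.33, 8.22 and 8.45 in 20E at 5 days, and 8.16, 8.21 and 8.11 in saline and 7.88, 8.05 and 7.57 in 20E at 15 days. ILMN_1250454 read 9.03, 9.0 and 9.20 in saline and 8.76, 8.80 and 8.81 in 20E at 5 days, and 8.69, 8.64 and 8.46 in saline and 8.47, 8.71 and 8.16 in 20E at 15 days. The falls were 0.47 and 0.41. At 5 days the saline mean was above the 20E mean on both probes (8.59 against 8.33 and 9.08 against 8.79). Limma called neither difference (adjusted p = 0.9999 for both). Foxk1, a forkhead repressor of autophagy genes, ran from 5.79 to 6.26 at 5 days and from 5.18 to 5.66 at 15 days (fall 0.56). Zkscan17, a zinc finger gene, and Nsmce2, a SUMO ligase of the SMC5/6 complex, had falls of 0.30 and 0.31. Another probe of each, also detected on all arrays, gave 0.21 for Zkscan17 and 0.01 for Nsmce2.

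RNA-binding members were Srsf5, a splicing factor (fall 0.55), Bclaf1 (0.45), Zc3h6 (0.42), Hnrnpf (0.35) and Gigyf1, a translational repressor partner (0.30). A second Gigyf1 probe detected on all arrays gave 0.03 (0.26 in saline and -0.21 in 20E). Srsf5 ran from 9.98 to 10.64 at 5 days and from 9.55 to 9.94 at 15 days. Bclaf1 ran from 6.77 to 7.14 at 5 days and from 6.27 to 6.69 at 15 days, and another probe of it gave 0.13. For Hnrnpf, 20E pool 3 of 15 days was lowest at 5.77, well under the other pools.

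Chst1, a keratan sulfate sulfotransferase, was 2.00-fold lower with a wide spread. It read 7.30, 8.30 and 7.30 in saline and 8.97, 7.78 and 8.07 in 20E at 5 days, and 7.29, 6.80 and 6.78 in saline and 7.25, 6.72 and 6.89 in 20E at 15 days. The first 20E pool of 5 days was highest and the durations were 0.013 apart. Without the raised arrays its fall was 0.54. B3galt4, which acts in ganglioside synthesis, ran from 5.22 to 5.64 at 5 days and from 4.79 to 5.20 at 15 days (fall 0.41). Panx1, a channel that releases ATP, ran from 7.38 to 7.82 at 5 days and from 6.93 to 7.33 at 15 days (fall 0.47). Scin, an actin-severing protein, ran from 7.68 to 7.96 at 5 days and from 7.31 to 7.51 at 15 days (fall 0.36). Arhgef3 ran from 9.57 to 10.54 at 5 days and from 9.36 to 9.57 at 15 days (fall 0.36). The probes for 2410002F23Rik, the lncRNA 2410006H16Rik, Gm5796 and Gucd1 had falls of 0.47, 0.43, 0.33 and 0.33. The unnamed probes ILMN_2506244 and ILMN_2647694 had falls of 0.33 and 0.32.

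Other probes of the same genes were read as a description of how far the pattern holds within a gene. Of 53 further probes, 24 (of 17 genes) were detected on all arrays and 17 on none. A lower mean at 15 days was seen for 22 of the 24, against 47.85% of all probes detected on 12 arrays. The fall was at least 0.3 for 12 of them, against 4.80% of all, and their median was 0.31. The durations did not overlap for 2 of the 24, those of Hbp1 and Mylk2, against 0.656% of detected probes of any size of fall. Probes of a gene share its transcripts and the same arrays, so they are not independent.

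At the size threshold, the members just inside were Atp6v1h (0.302), Zkscan17 (0.303) and Gigyf1 (0.304), and the probes just outside were Fbxw17 (0.299), Rora (0.297) and Ccng2 (0.293). Without the size threshold 95 candidate probes separated the durations, and without the separation 709 detected probes (4.80%) had a fall of at least 0.3. At the edge of the separation, Ccl11 overlapped by only 0.001, N4bp2l1 by 0.002 and Twf2 by 0.005. A further 27 probes separated with a fall of at least 0.3 but were not detected on all arrays, 6 of them on none.

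The median fall over the 44 probes was 0.42 in saline (0.27 to 1.47) and 0.41 in 20E (0.19 to 1.55). It was larger in 20E for 19 probes and larger in saline for 25. The rule did not name the difference between infusions, but it asked that the pools of both infusions separate together. Probes that fell in saline alone or in 20E alone, or that differed widely between infusions, could hardly enter. Similar falls in both infusions are thus partly fixed by the choice, and the share over all probes is not a like comparison. The difference was tested with limma on signals normalized from the deposited intensities, over all 19704 probes, on a log2 scale. For the difference of the fall (20E minus saline), 0 members and 0% of all probes passed limma's test after adjustment. Before adjustment 0 of 44 members had p under 0.05, against 3.37% of all probes. By limma, the lowest p among members belonged to ILMN_2647694 (-0.23, 95% interval -0.50 to 0.04), followed by Foxk1, whose fall was larger in 20E by 0.28 (-0.07 to 0.62). Both had an adjusted p of 0.9999. The other members with a larger fall in 20E and the smallest p were Odc1 (0.29, -0.08 to 0.66) and Ciart ILMN_3029489 (0.38, -0.14 to 0.91). Those with a larger fall in saline were Bclaf1 (-0.25, -0.60 to 0.10) and Srsf5 (-0.28, -0.71 to 0.16). The median half-width of the 95% interval was 0.37. The interval excluded a 2-fold difference of the falls for 42 of the 44 probes and a 1.5-fold difference for 26. A half-width of that size is close to the median fall, and the test does not show that the falls were equal.

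No member passed the test of 20E against saline, and the rule itself limited how far the infusions could differ in a member. Limma called 0 members at 5 days, at 15 days or averaged over both, as it called 0% of all probes in each comparison. Before adjustment, p was under 0.05 for 2 members at 5 days (3.47% of all probes), 3 at 15 days (4.16%) and 5 over both durations (4.18%). The lowest adjusted p of a member was 0.9999 at either duration and 0.9585 over both. Over both durations the Prdm2 probes gave 20E minus saline values of -0.27 (95% interval -0.45 to -0.10) and -0.21 (-0.41 to -0.02), and neither passed limma's test after adjustment (adjusted p = 0.9585 and 0.9995). ILMN_2647694 gave -0.15 (-0.29 to -0.02). On the higher side, the 3 with the smallest p were Chst1, which gave 0.30 (-0.19 to 0.79), Atp6v1h with 0.07 (-0.07 to 0.21) and Npc1 ILMN_1247075 with 0.05 (-0.12 to 0.22). At 5 days the 3 members with the smallest p in each direction were ILMN_2647694 (-0.27), the Prdm2 probes (-0.28 and -0.24), Chst1 (0.60, -0.09 to 1.29), Odc1 (0.13) and Atp6v1h (0.11). At 15 days the corresponding members were Ciart ILMN_3029489 (-0.46, -0.84 to -0.09), Prdm2 ILMN_2707291 (-0.31), Mylk2 (-0.19), Bclaf1 (0.13), Gigyf1 (0.09) and 2410006H16Rik (0.13). Over both durations 9 of 44 members were above 0, with a median of -0.06, and the interval excluded a 1.5-fold difference for 41. The median over all tested probes was 0.001. Members share arrays, and some share a gene, so their signs are not independent.

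The count of members was also taken with the durations relabelled. Within each infusion the labels of 5 and 15 days can be assigned to the 6 pools so that 400 labellings exist in all. The true one gave 44 probes and the full exchange gave the 95 probes higher at 15 days. The other 398 gave 0 to 39 probes, with a median of 5 and a 90th percentile of 14, and 15 of them gave 0. The labellings share pools with one another and some mix the arrays with raised probe sets, so these counts are given as a description without a p-value.

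Which pool bounded the separation was uneven. The first 20E pool of 5 days was the lowest of its duration for 15 of the 44 probes, and the second 20E pool of 15 days was the highest of its duration for 15. Saline pool 2 of 5 days was the highest of its duration for 14, and 20E pool 3 of 15 days was the lowest for 17. Each of the 12 pools was on its own side of the probe mean in the median, from 0.14 to 0.28 above it at 5 days and from 0.12 to 0.29 below it at 15 days. The rule largely fixes these sides, because each member had all 5-day values above all 15-day values.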

How the data were processed

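Triceps RNA pools were hybridised to Illumina MouseWG-6 v2.0 arrays. BeadStudio 3.1.3 and limma appear in the submitters' processing notes, with no role stated. Per the file headers, the deposited signal intensity is not normalized and comes with a detection p-value for each probe. The deposited log2 values share their quantiles across arrays, as read from the values, and the authors' steps to them are not given in the sources used here. The signal columns carry letter codes in place of durations. Each was matched to a log2 column by rank correlation (at least 0.976 with its own, at most 0.899 with another), a step that rests on values. Between 17106 and 18861 probes were detected per array, and the number of arrays limits the precision.

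Members, falls and gaps come from the deposited log2 values. Tests of 20E used limma 3.58.1 in R 4.3.3 (lmFit, eBayes, 8 residual degrees of freedom, Benjamini-Hochberg) on neqc-normalized signals (offset 16) of 19704 probes detected on at least 3 arrays, and were checked on simulated data. Intervals are 95%. Limma's estimates carry this offset and understate differences of dim probes. The printed fold changes of members come from the deposited log2 values, to which this offset was not applied. Gene names come from the platform annotation: 34885 probes had 1 symbol, 18 several and 10378 none. The members and gene lists were chosen with earlier results of these data known. Named in the text are the members with the 20 largest falls, those on a list or with more probes per gene, those with the smallest p and those at the edges of the rule; other members are given by range. The grouping by role and the genes named outside the set were chosen after their values were seen. Same-numbered saline and 20E pools did not deviate together (correlations -0.56 to 0.14), so replicate numbers were not used as pairs. Alternatives were median scaling, no background correction, other offsets and filters, array weights, blocks, and leaving out each array, the 6 arrays with raised probe sets or either run of array numbers.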

Additional observations from a re-analysis of the deposited data

How the results depend on the processing

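The set of 44 probes became 209 with median scaling (all 44 retained), 25 without background correction (25 shared), 71 without the detection filter, 95 without the size threshold, 13 with a fall of at least 0.5, and 332 without the 6 arrays with raised probe sets (35 shared), where each duration has fewer pools and separation is easier by construction. Leaving out 1 array gave 50 to 78 probes, the most without 20E 5d replicate 1. Signals normalized here gave 37, all shared. The split of lower against higher probes was 44 to 95, and it became 209 to 16 with median scaling and 25 to 28 without background correction. The median fall in saline was 0.32 without background correction and 0.36 without the 6 arrays; leaving out 1 array gave 0.41 to 0.44. In 20E it was 0.53 with median scaling, 0.31 without background correction and 0.28 within arrays 1 to 6; leaving out 1 array gave 0.38 to 0.45. The cause was not tested. Of the 100 counts of 20E calls under alternatives 98 were 0, the exceptions being 6 probes at 5 days within arrays 1 to 6 and 1 at 15 days without the 6 arrays. No member was called in any (lowest adjusted p 0.22). The replicate block left all 20E counts at 0. Of 600 values of named members 7 changed sign: within arrays 7 to 12, Chst1 (-0.361 at 5 days, -0.0577 averaged) and Atp6v1h (-0.0501 at 5 days, -0.0461 averaged), within arrays 1 to 6 Odc1 at 5 days (-0.0026) and the difference of the fall of Ciart ILMN_3029489 (-0.0852), and Npc1 ILMN_1247075 averaged (-0.0024 without Saline 5d replicate 2, up to 0.102 without other arrays). The count of probes called between durations, members included (8), ran from 0 to 91.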
